A study of Mus musculus with 2 samples.

Results

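The clustered histone genes are the replication-dependent histone genes that lie in tandem clusters in the genome. They were taken as the protein-coding rows of the gene tables whose mouse symbol begins with Hist1h, Hist2h, Hist3h or Hist4h. The rule found 64 genes among 43346 genes in all and among 21461 nuclear protein-coding genes. They comprised 6 linker histone H1 genes, 18 H2A genes, 15 H2B genes, 12 H3 genes and 13 H4 genes. A further 3 protein-coding symbols of the later annotation, Hist2h2bb, Hist1h2bm and Hist1h2bh, had no row under their identifiers and are not analysed here. All of these are H2B genes, so sums over H2B cover the 15 listed genes only.

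The RNA came from G1E, an immortalised mouse erythroid progenitor line described in the labels as Gata1-, from a male of strain C57BL/6J at 0 day postnatal. The 2 libraries are biological replicates, each made from 1 ng of total RNA with a size limit of 200 nucleotides and with added spike-in transcripts. The labels give no treatment and 1 group, so no groups can be compared, and the only comparison is of replicate 2 with replicate 1. Both libraries come from 1 line, and the labels do not say whether the replicates were separate cultures, so p-values compare these 2 libraries and hold counting error only.

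Each cell that copies its DNA must also make histones to package the new copy, and the clustered genes supply most of this protein during S phase. Pairs of H2A, H2B, H3 and H4 form the core of the nucleosome, and H1 binds the DNA that links nucleosomes. Their mRNAs carry no introns in their main form and no poly(A) tail. They end instead just after a conserved stem-loop that is bound by SLBP, the stem-loop binding protein, which governs their processing, translation and decay. Many histone variants outside the clusters are not limited to S phase and come largely from polyadenylated mRNAs. Erythroid progenitors divide rapidly, and total RNA sequencing keeps mRNAs without a tail.

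A stem-loop was found in the annotated GENCODE M21 transcript of 42 of the 64 genes. The search took the first 16 bases after the stop codon with a 6-base stem that pairs perfectly and begins with GG, and a 4-base loop that begins with TT. Of the 22 genes without a match, 16 have an annotated transcript that ends within 74 bases of the stop codon. The stem-loop began between 21 and 58 bases after the stop, with a median of 31.5. Its sequences are shown because this element is what sets the ends of these mRNAs. The most common form occurred in 24 genes of 4 histone types, and a form with a changed stem occurred in 7 H4 genes and in no other type. In the sequences that follow the capitals mark the stem-loop, with 5 bases on each side, 5′ to 3′ on the strand of the gene (GRCm38).
Hist1h1e, chr13:23621777-23621802, minus strand: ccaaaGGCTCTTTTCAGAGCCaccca
Hist1h2bg, chr13:23571838-23571863, plus strand: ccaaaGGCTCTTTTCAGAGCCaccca
Hist1h3d, chr13:23576239-23576264, plus strand: ccaaaGGCTCTTTTCAGAGCCacccc
Hist1h2bk, chr13:22036295-22036320, plus strand: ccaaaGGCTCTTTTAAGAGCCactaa
Hist1h4d, chr13:23581945-23581970, plus strand: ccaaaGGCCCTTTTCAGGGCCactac
Hist2h4, chr3:96262934-96262959, minus strand: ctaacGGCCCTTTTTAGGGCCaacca
Hist1h4j, chr13:21735432-21735457, plus strand: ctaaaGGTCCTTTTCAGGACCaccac
The form of Hist1h2bk was found in 6 genes (Hist1h1t, Hist1h2bb, Hist1h2bk, Hist1h3c, Hist1h3e and Hist1h3f). The forms of Hist2h4 and Hist1h4j were found in 2 H4 genes each, so all 11 H4 stem-loops had a stem that differs from that of the other types.

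RefSeq promoter windows, 250 bases before to 50 after the annotated start (GRCm38.p6), matched 59 of the 64 genes. The motifs searched, on both strands, were CCAAT (the CCAAT box), TATAAA (the TATA box), ATTTGCAT (the octamer known from H2B promoters) and AAACACA (known from H1 promoters). No matches of different motifs overlapped in these windows. CCAAT was present in 84.7% of the histone windows and in 37.4% of all 32851 windows. All 47 windows of H1, H2A, H2B and H3 genes held it, against 3 of 12 H4 windows. TATAAA was present in 59.3% of the histone windows and 13.6% of all windows. ATTTGCAT was present in 7 of 18 H2A and 5 of 13 H2B windows and in none of the other types, against 1.74% of all windows. All H2B matches were on the strand of the gene and all H2A matches on the other strand. Windows of divergent partners overlap, so a site can be counted for both genes. The same octamer was counted for Hist1h2ae and Hist1h2bg, for Hist1h2ah and Hist1h2bk, and for Hist1h2aa and Hist1h2ba. AAACACA was present in 5 of 6 H1 windows, against 7.18% of all windows. On the strand of the gene, the TATAAA of all 4 H1 windows that held one began 26 to 33 bases before the annotated start. Over all types 12 of 30 genes had it 20 to 40 bases before the start, among them 4 of 10 H2A, 1 of 4 H2B, 2 of 4 H3 and 1 of 8 H4 genes. A match is a run of letters and was not tested for binding.

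The promoters of 3 highly expressed genes, and the region between the starts of 2 divergent H2A and H2B pairs, are shown because the levels of these genes are compared below. Capitals mark the motifs, and ATTGG is CCAAT on the other strand. Each is read 5′ to 3′ on the strand named and ends at the base before the annotated start of the last gene named.
Hist1h1e, chr13:23622559-23622708, minus strand: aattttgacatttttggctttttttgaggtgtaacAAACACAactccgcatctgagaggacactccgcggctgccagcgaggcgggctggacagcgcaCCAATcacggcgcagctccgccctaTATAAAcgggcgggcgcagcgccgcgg
Hist2h3b, chr3:96268504-96268653, plus strand: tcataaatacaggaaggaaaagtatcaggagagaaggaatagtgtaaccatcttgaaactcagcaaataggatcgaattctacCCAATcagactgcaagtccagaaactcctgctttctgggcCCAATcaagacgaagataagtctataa
Hist1h4d, chr13:23581418-23581567, plus strand: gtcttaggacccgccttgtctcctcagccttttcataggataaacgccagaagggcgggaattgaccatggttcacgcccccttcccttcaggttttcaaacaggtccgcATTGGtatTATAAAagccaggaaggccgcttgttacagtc
Hist1h2ae to Hist1h2bg, chr13:23571221-23571399, plus strand: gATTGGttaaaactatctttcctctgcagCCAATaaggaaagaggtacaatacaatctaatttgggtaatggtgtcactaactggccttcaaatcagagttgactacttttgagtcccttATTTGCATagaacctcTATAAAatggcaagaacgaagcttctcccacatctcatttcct
Hist1h2ai to Hist1h2bl, chr13:21716184-21716411, minus strand: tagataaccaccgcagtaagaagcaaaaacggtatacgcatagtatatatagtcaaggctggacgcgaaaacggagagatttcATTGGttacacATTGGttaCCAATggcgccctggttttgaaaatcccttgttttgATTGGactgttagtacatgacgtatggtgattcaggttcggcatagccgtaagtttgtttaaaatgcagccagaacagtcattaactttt
The region of Hist1h2ae and Hist1h2bg held an octamer and a TATAAA on the H2B strand. The region of Hist1h2ai and Hist1h2bl held 4 CCAAT matches and neither of those motifs.

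Replicate 1 held 31649878 estimated counts and replicate 2 held 40597614. Nuclear protein-coding genes took 8513094 and 7669565 of them. Deposited TPM, a level per transcript length scaled to a fixed total, was lower in replicate 2. The ratio of TPM, replicate 2 over replicate 1, differed from the ratio of scaled counts by a median factor of 0.647 over tested genes. The SDs of TPM below include this difference, so shares and scaled ratios are given beside them. Gata1 itself had 798 and 649 counts, and the labels do not say which part of the gene is altered. All 8 erythroid progenitor markers were detected, led by Kit (145 ± 42.7 TPM, SD, n = 2) and Gfi1b (97.3 ± 35.9). All 8 lymphocyte markers had 0 counts in both libraries, and no granulocyte, macrophage, fibroblast or endothelial marker reached 1 TPM in both. Of the mast cell list Cpa3 (38.1 ± 18.9 TPM) and Hdc (3.31 ± 0.608) were detected, and of the megakaryocyte list Pf4 (11.3 ± 2.11), Ppbp and Itga2b, while Mcpt8 and Cma1 had 0 counts. Of the markers only Adgre1 (1 and 15 counts), Cd68 (17 and 1), Gp1ba (32 and 10) and Pdgfra (11 and 0) were called different between the libraries. In bulk RNA, fewer dividing cells and less histone mRNA per dividing cell cannot be told apart.

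Clustered histone mRNA was a large component of the G1E transcriptome when expressed per transcript length. The 64 genes summed to 9676 TPM in replicate 1 and 5642 in replicate 2 (7659 ± 2853 TPM, SD, n = 2). This was 4.78% and 4.33% of the TPM of all nuclear protein-coding genes (4.55% ± 0.316, SD, n = 2). Because the mRNAs are short, the same genes took 1.04% and 0.909% of the counts on nuclear protein-coding genes. A TPM of at least 1 in both libraries was reached by 56 genes (87.5%), against 38.9% of all nuclear protein-coding genes. Of the 64 genes, 20 had a mean of at least 100 TPM, 28 had 10 to 100, 10 had 1 to 10 and 6 had less than 1. By mean TPM, 11 of the 100 most abundant nuclear protein-coding genes were clustered histone genes, and Hist1h4d ranked 4th.

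The message was unevenly divided among the genes. The 5 genes with the highest means (Hist1h4d, Hist1h1e, Hist2h3b, Hist1h2bg and Hist1h3d) gave 44.0% of the summed TPM in replicate 1 and 43.6% in replicate 2. The top 20 gave 80.0% and 77.9%. By type, H4 summed to 2276 ± 804 TPM, H3 to 1792 ± 763, H2A to 1359 ± 533, H2B to 1194 ± 387 and H1 to 1038 ± 366 (SD, n = 2 each). The SDs of neighbouring types overlap. As shares of the histone total the order was the same in both libraries: 29.4% and 30.3% for H4, 24.1% and 22.2% for H3, 17.9% and 17.4% for H2A, 15.2% and 16.3% for H2B, and 13.4% and 13.8% for H1. With RefSeq lengths, an alternative described below, the ranges of H2B (13.3% and 14.1%) and H1 (13.03% and 13.6%) overlapped. The H2B share leaves out 3 genes.

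**Figure D1:**
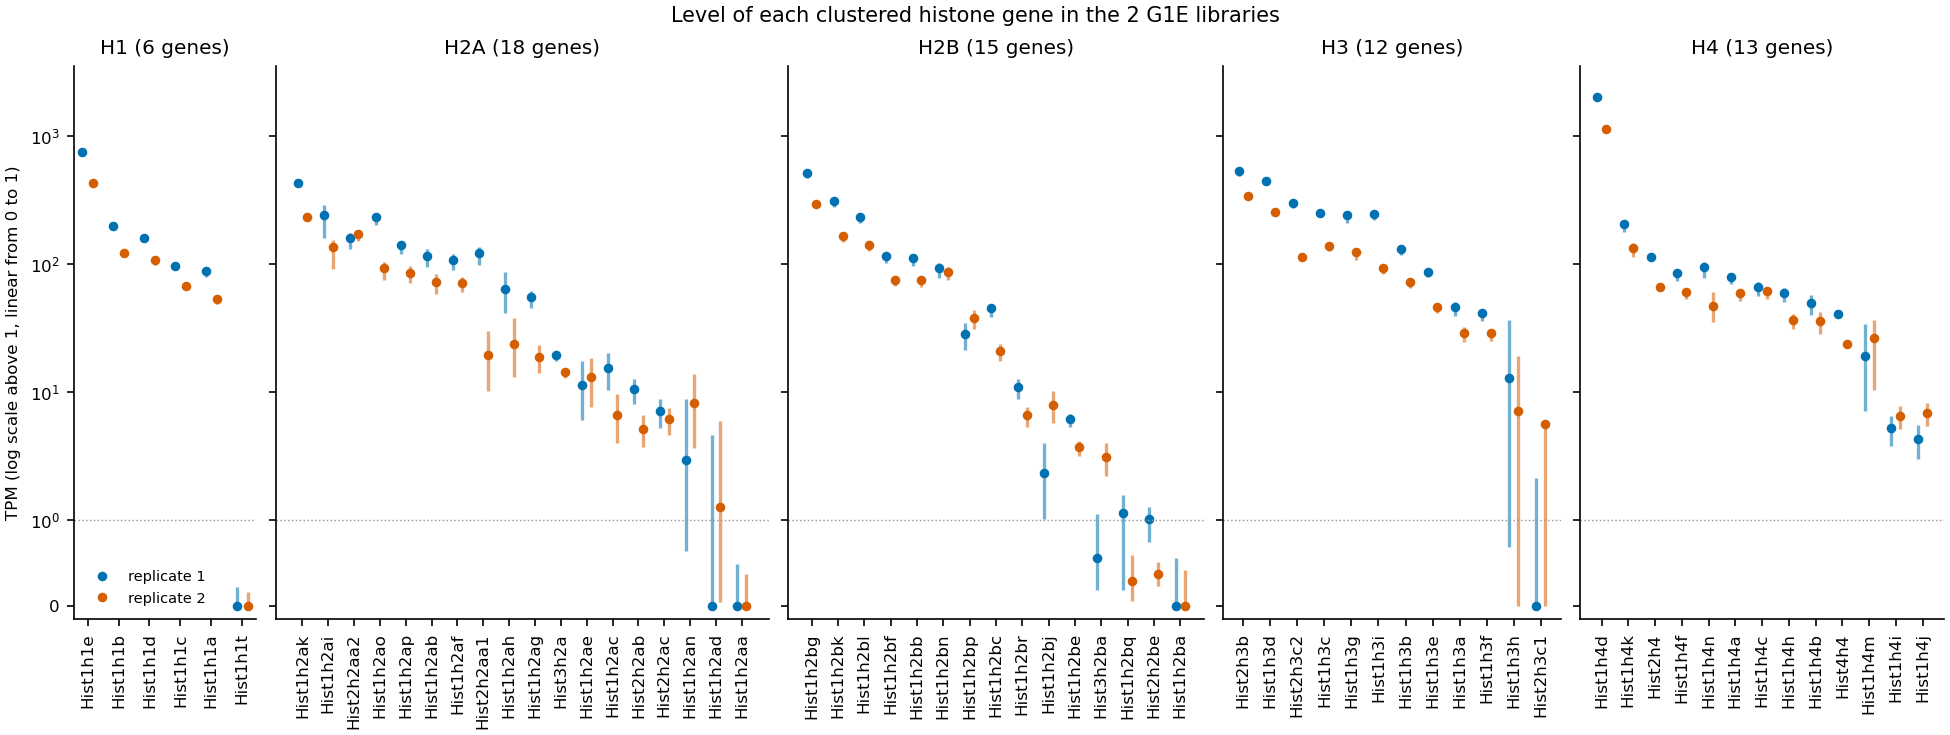
Level of each of the 64 clustered histone genes by type, as deposited TPM (points) in replicate 1 (blue) and replicate 2 (orange), with the deposited credibility intervals of the posterior mean as bars, which need not hold the point. The vertical axis is logarithmic above 1 and linear from 0 to 1, and the dotted line is the detection limit of 1 TPM. Hist1h4d stands at 2021 and 1143 TPM, above every other gene, and Hist1h1t, Hist1h2aa and Hist1h2ba lie at 0.

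TPM depends on the length the annotation gives a gene, and the deposited lengths of these genes ran from 312 bases, a bare coding sequence, to 2879. With the RefSeq gene length in place of the deposited one for 58 genes, an alternative chosen after seeing the data, Hist1h4d stayed first at 1532 TPM. The genes that kept the deposited length were all H2B genes: Hist1h2bc, Hist1h2be, Hist1h2bp, Hist1h2bq, Hist1h2br and Hist2h2be. The H2B sum and share of this alternative thus mix both kinds of length. Counts stayed as assigned over the deposited lengths. Where the deposited length is longer than the RefSeq one, reads outside the RefSeq gene can be included. The value can then be too high, here and wherever RefSeq lengths are used. Hist2h4 moved from rank 26 to rank 3 (89.5 to 508 TPM) and Hist4h4 from rank 43 to rank 8 (32.3 to 277 TPM), as their deposited lengths of 1630 and 2879 bases became 384 and 439. The type sums then were 2875 TPM for H4, 1942 for H3, 1202 for H2A, 1117 for H2B and 1090 for H1, in the same order.

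The linker histones package DNA between nucleosomes, and 5 of the 6 H1 genes were detected. Hist1h1e had 753 TPM in replicate 1 and 428 in replicate 2 and made up 58.0% and 54.9% of the H1 sum. Hist1h1b (199 and 123 TPM), Hist1h1d (161 and 107), Hist1h1c (96.1 and 67.4) and Hist1h1a (87.6 and 53.6) followed in the same order in both libraries. This order is that of the deposited lengths. With RefSeq lengths Hist1h1c moved from a mean of 81.7 to 194 TPM, above Hist1h1b (149) and Hist1h1d (127). With deposited lengths the 5 detected H1 genes spanned 8.36-fold. Hist1h1t, the testis H1, had 0 counts in both, which allows up to 0.0948 and 0.0739 CPM. Scaled to effective library size, the ratios of replicate 2 to replicate 1 ran from 0.870 for Hist1h1e to 1.08 for Hist1h1c, and none was called. H1 genes differ most from each other (coding sequences at most 83.9% identical), and their counts could be divided with a posterior SD of at most 0.502% of the count.

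H2A pairs with H2B in the nucleosome, and 16 of 18 H2A genes were detected. Hist1h2ak was the highest, at 430 and 234 TPM, or 24.8% and 23.8% of the H2A sum. Hist1h2ai followed at 241 and 137 TPM, with wide credibility intervals of 161 to 292 and 92.3 to 155. Hist2h2aa2, in the Hist2 cluster, had 160 and 172 TPM and was the 1 gene of the top 10 H2A genes with a higher TPM in replicate 2. Hist1h2ao (233 and 92.7 TPM), Hist1h2ap (140 and 86.0), Hist1h2ab (116 and 72.2), Hist1h2af (107 and 71.6), Hist2h2aa1 (122 and 19.4), Hist1h2ah (63.8 and 23.8) and Hist1h2ag (55.3 and 18.9) came next.

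The lower H2A genes on deposited lengths were Hist3h2a (19.5 and 14.4 TPM), Hist1h2ae (11.4 and 13.2), Hist1h2ac (15.6 and 6.61), Hist2h2ab (10.6 and 5.19) and Hist2h2ac (7.17 and 6.15). With the RefSeq length Hist3h2a had 100.4 and 75.8 TPM. Hist1h2an, the lowest that passed the detection limit, had 2.96 and 8.30 TPM. Hist1h2ad had 0 and 1.28 TPM with intervals up to 4.66 and 5.93, and Hist1h2aa, a testis H2A, had 0 counts in both libraries. Of the 18 genes 9 encode 1 and the same protein, among 9 distinct H2A proteins, and these 9 genes summed to 815 and 436 TPM. Against that protein Hist1h2ak differs by the single substitution S123T, Hist1h2af by A127P and Hist3h2a by T17S (positions counted from the start methionine as 1). Hist2h2aa1 and Hist2h2aa2 differ from it by T17S, S41A, L52M and R100K.

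H2B genes were carried by Hist1h2bg, at 510 and 296 TPM. It gave 34.8% and 32.2% of the sum over the 15 listed genes, of which 11 were detected. Hist1h2bk (309 and 165 TPM) and Hist1h2bl (233 and 141 TPM) followed, then Hist1h2bf (115 and 75.7), Hist1h2bb (111 and 75.6) and Hist1h2bn (92.8 and 86.7). Hist1h2bp (28.7 and 38.0 TPM), Hist1h2bc (45.2 and 21.1), Hist1h2br (10.9 and 6.64) and Hist1h2bj (2.33 and 7.94) lay lower. Hist1h2be was the lowest detected, at 6.24 and 3.73 TPM over a deposited length of 2387 bases. In the later annotation its gene span overlaps that of Hist1h1e on the same strand. Its posterior SD was 2.33% and 2.31% of its count. An effect of the overlap on its level was not tested.

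The other 4 H2B genes missed the detection limit. Hist3h2ba had 0.560 and 3.11 TPM, Hist1h2bq 1.14 and 0.290, and Hist2h2be 1.02 and 0.370. Hist1h2ba, the testis H2B, had 0 counts in both libraries. Hist1h2bc, Hist1h2be and Hist1h2bg encode 1 protein, which differs by S76G from that of Hist1h2bf, Hist1h2bj, Hist1h2bl and Hist1h2bn. Hist1h2bg supplied 90.8% and 92.3% of the TPM for the first of these proteins.

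H3 carries many of the modified tail residues of chromatin, and 11 of 12 H3 genes were detected. A mean of at least 100 TPM was reached by 7 of them, the most of any type. By mean TPM, Hist2h3b led with 529 and 339 TPM, followed by Hist1h3d (445 and 254) and Hist2h3c2 (298 and 114). Hist1h3c (252 and 138 TPM), Hist1h3g (242 and 124), Hist1h3i (246 and 93.8), Hist1h3b (132 and 72.8), Hist1h3e (87.5 and 46.1), Hist1h3a (46.5 and 29.1) and Hist1h3f (41.3 and 29.0) came next by mean TPM. Hist1h3h was the lowest detected by TPM, at 13.01 and 7.10, with intervals of 0.686 to 36.6 and 5.16e-05 to 19.3 that reach below the detection limit. Hist2h3c1 had 0 and 5.62 TPM.

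The 12 H3 genes encode only 2 proteins, which differ by S97C counted from the start methionine, the position known as residue 96 of the mature H3.2 and H3.1 proteins, with serine in H3.2. The 8 genes of the serine form summed to 1784 and 998 TPM, and the 4 genes of the cysteine form (Hist1h3a, Hist1h3g, Hist1h3h and Hist1h3i) to 548 and 254 TPM. On deposited lengths the serine form was thus 3.26-fold and 3.93-fold higher (3.59-fold ± 0.473, SD, n = 2). Those lengths ran from 488 to 1820 bases for the serine form and from 411 to 534 for the cysteine form. The fold depends on them, and the SD does not cover this. It was not taken with RefSeq lengths. The scaled count ratio between the libraries was 0.821 (95% interval 0.803 to 0.839) for the serine form and 0.708 (0.672 to 0.746) for the cysteine form. Both were under 1, and the intervals, which cover counting error only, did not overlap.

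All 13 H4 genes encode the same protein, and all 13 were detected, but 1 gene dominated. Hist1h4d (chr13:23581598-23582735, plus strand) had 2021 and 1143 TPM, 71.04% and 66.9% of all H4 TPM. The other 12 H4 genes together summed to 824 and 564 TPM. Its coding sequence is at most 94.2% identical to that of another member, and its posterior SD was 0.0797% and 0.0892% of its count, so few of its reads were shared. Hist1h4k (205 and 134 TPM) and Hist2h4 (113 and 65.7 TPM) were next. Hist1h4k is annotated as its bare coding sequence of 312 bases. With RefSeq lengths the share of Hist1h4d in the H4 sum was 54.6% and 51.1%.

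The remaining H4 genes were Hist1h4f (85.0 and 60.4 TPM), Hist1h4n (95.5 and 46.8), Hist1h4a (79.8 and 59.0), Hist1h4c (65.9 and 61.5), Hist1h4h (59.8 and 36.8), Hist1h4b (49.7 and 35.9), Hist4h4 (40.7 and 23.9) and Hist1h4m (19.3 and 26.7). Hist1h4i (5.24 and 6.56 TPM) and Hist1h4j (4.31 and 6.93) were the lowest. Hist1h4d was 469-fold and 165-fold higher than Hist1h4j in TPM, and 213-fold and 73.4-fold higher with RefSeq lengths. The credibility intervals belong to a posterior mean and not to the deposited TPM. For Hist1h4d in replicate 1 the interval of 1918 to 1988 surrounds a posterior mean of 1952 TPM and does not hold its TPM of 2021. The deposited TPM lay outside the interval for 8 members in replicate 1 and for 6 in replicate 2.

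Most clustered H2A and H2B genes stand head to head and are transcribed away from a shared promoter region. Start codons of 12 such pairs lay 278 to 334 bases apart. The intervals of the partners overlapped in both libraries in 1 of the 11 pairs with counts. Hist1h2ai and Hist1h2bl had 241 and 233 TPM in replicate 1 and 137 and 141 in replicate 2. In 5 pairs the H2B gene was higher, and in 5 the H2A gene was higher, with separate intervals in both libraries. These levels are per deposited length, and intervals cover counting and assignment error. Hist2h2ac and Hist2h2be, a pair with the H2A gene higher, have deposited lengths of 520 and 2620 bases. They had 61.8 and 54 counts in replicate 1 and 71.7 and 27 in replicate 2.

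Hist1h2bg was 44.9-fold and 22.5-fold higher than Hist1h2ae, its partner across the region printed above (33.7-fold ± 15.8, SD, n = 2). Hist1h2bf had 115 and 75.7 TPM beside 0 and 1.28 for Hist1h2ad. In the opposite direction, Hist1h2ap was 12.8-fold and 12.95-fold higher than Hist1h2br in TPM, over deposited lengths of 482 and 1256 bases. In counts the difference was smaller, with 1097 and 906 for Hist1h2ap beside 265 and 221 for Hist1h2br. Hist1h2ao had 1811 and 972 counts beside 46.8 and 17.2 for Hist1h2bq. The partners of the Hist1h2aa and Hist1h2ba pair both had 0 counts.

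**Figure D2:**
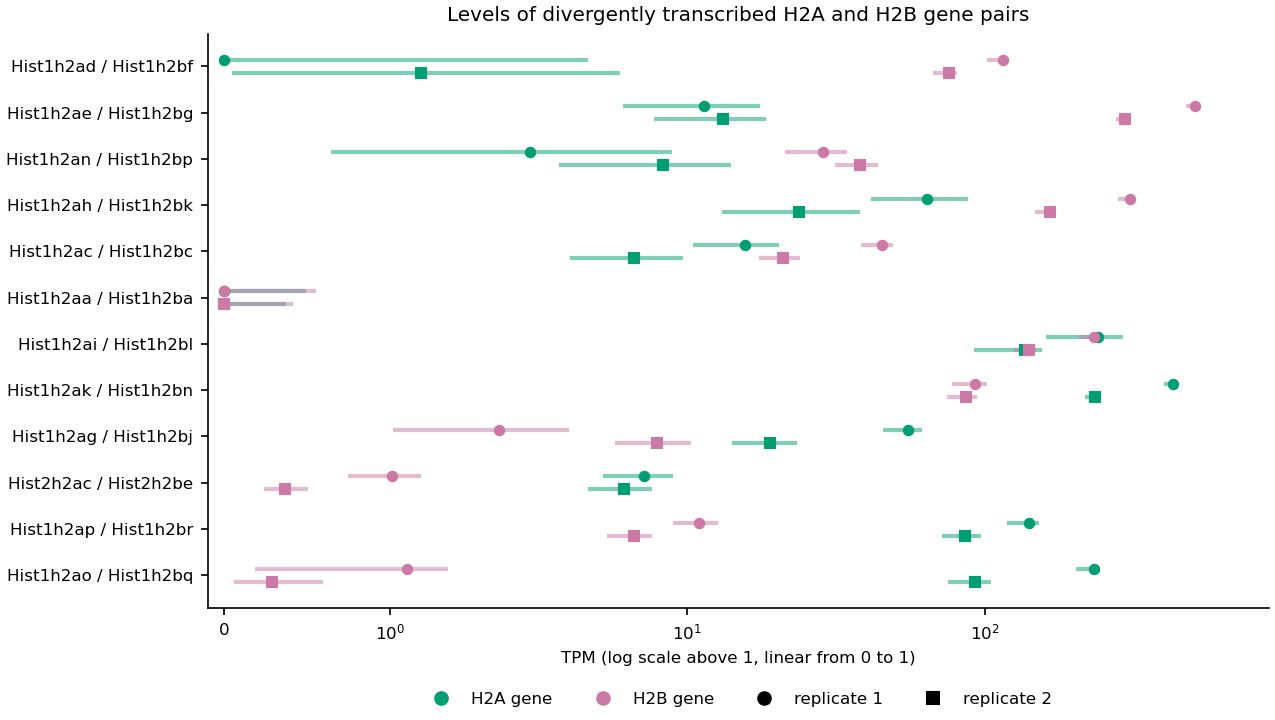
TPM of the H2A gene (green) and the H2B gene (pink) of the 12 divergent pairs, in replicate 1 (circles) and replicate 2 (squares), with deposited credibility intervals as bars. The horizontal axis is logarithmic above 1 and linear from 0 to 1. Intervals of the partners overlap in both libraries for Hist1h2ai and Hist1h2bl and, at 0 counts, for Hist1h2aa and Hist1h2ba, and are separate for the other 10 pairs.

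The Hist1 cluster on chromosome 13 held 52 of the genes and 86.6% and 86.4% of the histone TPM. Hist2 on chromosome 3 held 9 genes, with 12.8% and 12.9%. Hist3 on chromosome 11 (Hist3h2a and Hist3h2ba) and Hist4 on chromosome 6 (Hist4h4) held the rest, with under 1% each on deposited lengths. With RefSeq lengths Hist1 held 77.1% and 77.1%, and Hist2 18.6% and 18.1%. Hist4 then held 3.33% and 3.44%, and Hist3 0.975% and 1.32%. Within Hist1, a gap of more than 200 kb separates a block of 22 genes (328 kb, chr13:21715763-22043676) from a block of 30 genes (404 kb, chr13:23531050-23934851). The second block, which contains Hist1h4d and Hist1h1e, gave 68.6% and 69.4% of the Hist1 TPM. The median gene of the first block had 57.5 TPM and that of the second 70.0 TPM.

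The libraries were next compared gene by gene, by a two-sided exact binomial test of the counts against TMM effective library sizes (edgeR), with Benjamini-Hochberg adjustment over all 11902 genes that had at least 10 counts over both libraries. Calls needed a 2-fold ratio and an adjusted p below 0.05. The test compares 2 libraries and covers counting error only. Of the 64 members 61 were tested, and 41 of these lay within 1.5-fold. Higher in replicate 2 were 7 (11.5%, against 5.08% of all genes tested) and higher in replicate 1 were 2 (3.28%, against 2.22%). Scaled to total counts the numbers were 5 of 61 (against 396 of 11902 genes tested, 3.33%) and 10 of 61 (against 1024, 8.6%). Scaled to spike-in counts, which numbered 514 and 10351, they were 1 of 61 (against 36 of 11902, 0.302%) and 59 of 61 (against 11608, 97.5%).

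The genes called higher in replicate 2 were Hist2h3c1 (0 and 280 counts), Hist1h2ad (0 and 12.7), Hist3h2ba (5.92 and 44.8), Hist1h2bj (17.3 and 79.2), Hist1h2an (17.5 and 65.8), Hist1h4j (60.3 and 133) and Hist1h4m (118 and 219). Those called higher in replicate 1 were Hist2h2aa1 (1222 and 264 counts) and Hist1h2bq (46.8 and 17.2). None of the 9 was among the 3 highest genes of its type. Only Hist2h3c1, Hist1h4m and Hist2h2aa1 had a mean count of at least 100.

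The deposited credibility intervals also carry the error of dividing reads among similar copies, which the binomial test ignores. After the intervals of replicate 2 were rescaled by the factor given above, they were separate and the posterior means at least 2-fold apart for 5 of the 61 genes. Of these 4 were higher in replicate 2 (6.56%, against 3.86% of all genes tested): Hist1h2bj, Hist1h2bp, Hist1h4j and Hist3h2ba. The other, Hist2h2aa1, was higher in replicate 1 (1.64%, against 0.907%). For 5 of the 9 genes called by the binomial test the intervals overlapped: Hist1h2ad, Hist1h2an, Hist1h2bq, Hist1h4m and Hist2h3c1.

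**Figure D3:**
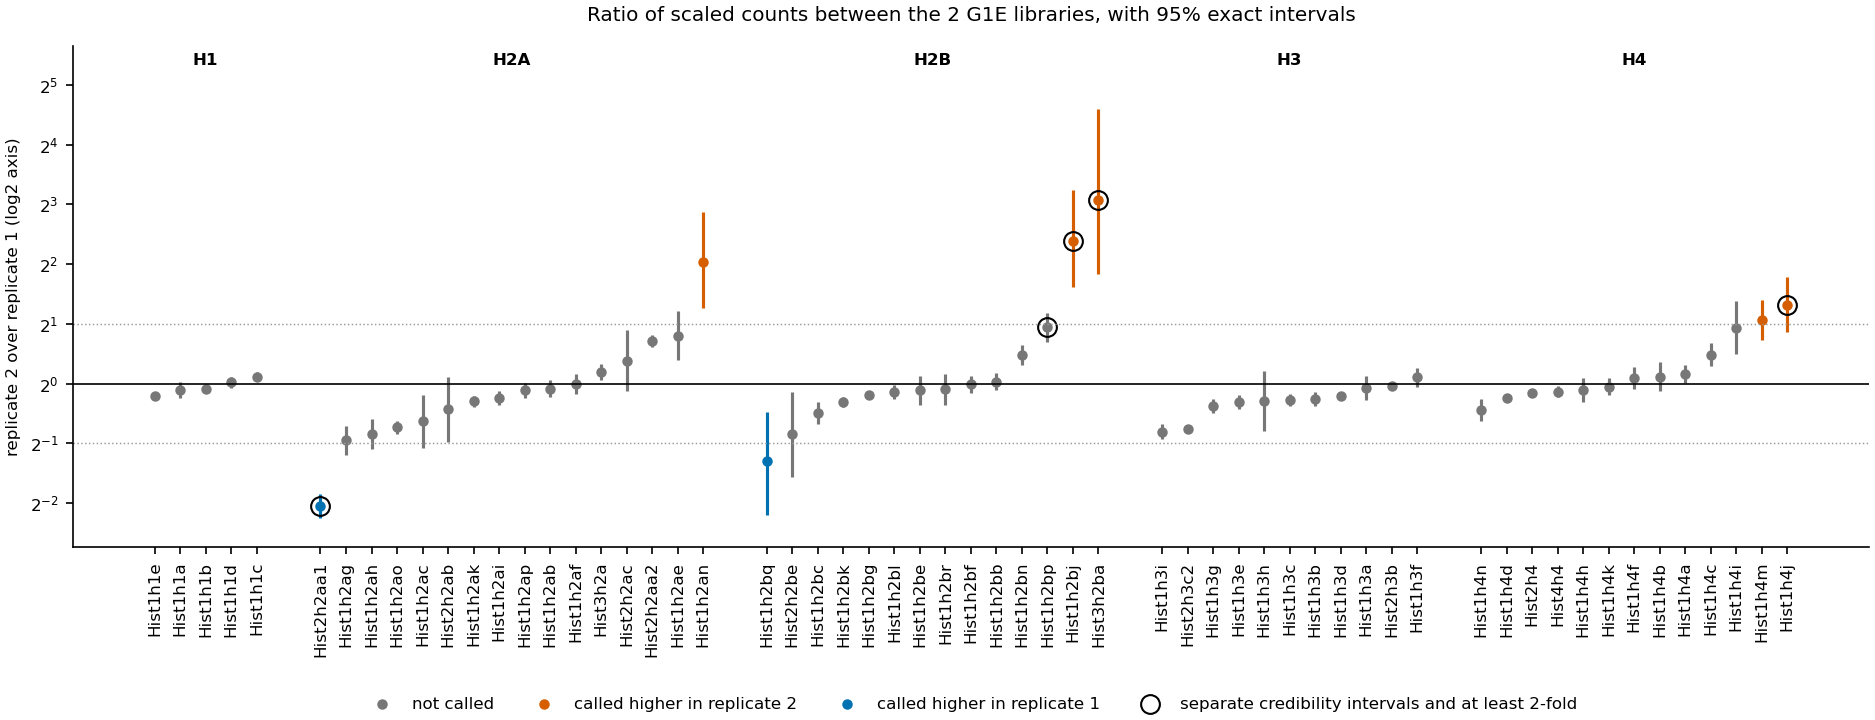
Ratio of replicate 2 to replicate 1 in scaled counts for the members tested with counts in both libraries, ordered by type, on a log2 axis with 95% exact intervals for counting error. Colours mark genes called by the binomial test, and rings mark genes whose credibility intervals were separate and at least 2-fold apart. The dotted lines are at a 2-fold difference, and most genes lie between them.

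Sums over genes do not depend on how reads were divided among the genes summed, but still on reads shared with rows outside the sum. The summed counts of all members were 88587 and 69704, a scaled ratio of 0.882 (95% interval 0.873 to 0.891) or -0.18 on the log2 scale, against a median log2 ratio of -0.00014 over all genes tested. By type the ratio was 0.803 for H3 (0.787 to 0.819), 0.866 for H2A (0.843 to 0.888), 0.906 for H4 (0.888 to 0.924), 0.930 for H2B (0.905 to 0.956) and 0.933 for H1 (0.914 to 0.953). With the pseudogene rows added, an alternative chosen after seeing the data, the log2 ratio of H2A went from -0.21 to -0.31. With this scaling no type reached a 2-fold difference. Scaling to total or spike-in counts moved the median log2 ratio of all genes tested to -0.52 and -4.50, and the type ratios fell with it. With 1 group of 2 libraries there is no further replicate with which to compare these differences.

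Several of the largest single-gene differences lay within pairs of rows that share sequence. Hist2h2aa1 and Hist2h2aa2 have identical coding sequences. Hist2h2aa1 had 1222 and 264 counts and Hist2h2aa2 had 1402 and 2045, a ratio of 1.64 that was not called, and the pair summed to 2624 and 2308 counts, a scaled ratio of 0.986 (0.932 to 1.04). Hist1h4m and Hist1h4n are also identical in coding sequence, and their sum of 760 and 640 counts had a ratio of 0.944 (0.848 to 1.05). Hist1h2bq and Hist1h2br summed to 312 and 238 counts, a ratio of 0.855 (0.719 to 1.02).

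Hist2h3c1 and Hist2h2aa1 both overlap Gm20634, a non-coding gene on the same strand that is no member. The planned groups were by sequence alone, and all sums with Gm20634 were chosen after seeing the data. Hist2h3c1 had 0 and 280 counts and Gm20634 had 341 and 50.9, and both together had 341 and 331, a ratio of 1.09 (0.932 to 1.27). For these 4 sums the interval included 1. With Gm20634 added, a choice made after seeing the data, Hist2h2aa1 and Hist2h2aa2 summed to 2966 and 2359 counts, a ratio of 0.891 (0.844 to 0.941), whose interval did not include 1. With Hist2h3c1 as well the ratio was 0.997 (0.946 to 1.05). The interval also did not include 1 for Hist1h2ao and Hist1h2ap, a further pair with identical coding sequences, which summed to 2908 and 1878 counts, a ratio of 0.724 (0.683 to 0.767). Hist2h3c1 also shares its coding sequence with Hist2h3c2, and those genes summed to 5720 and 3295 counts, a ratio of 0.646 (0.618 to 0.674).

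**Figure D4:**
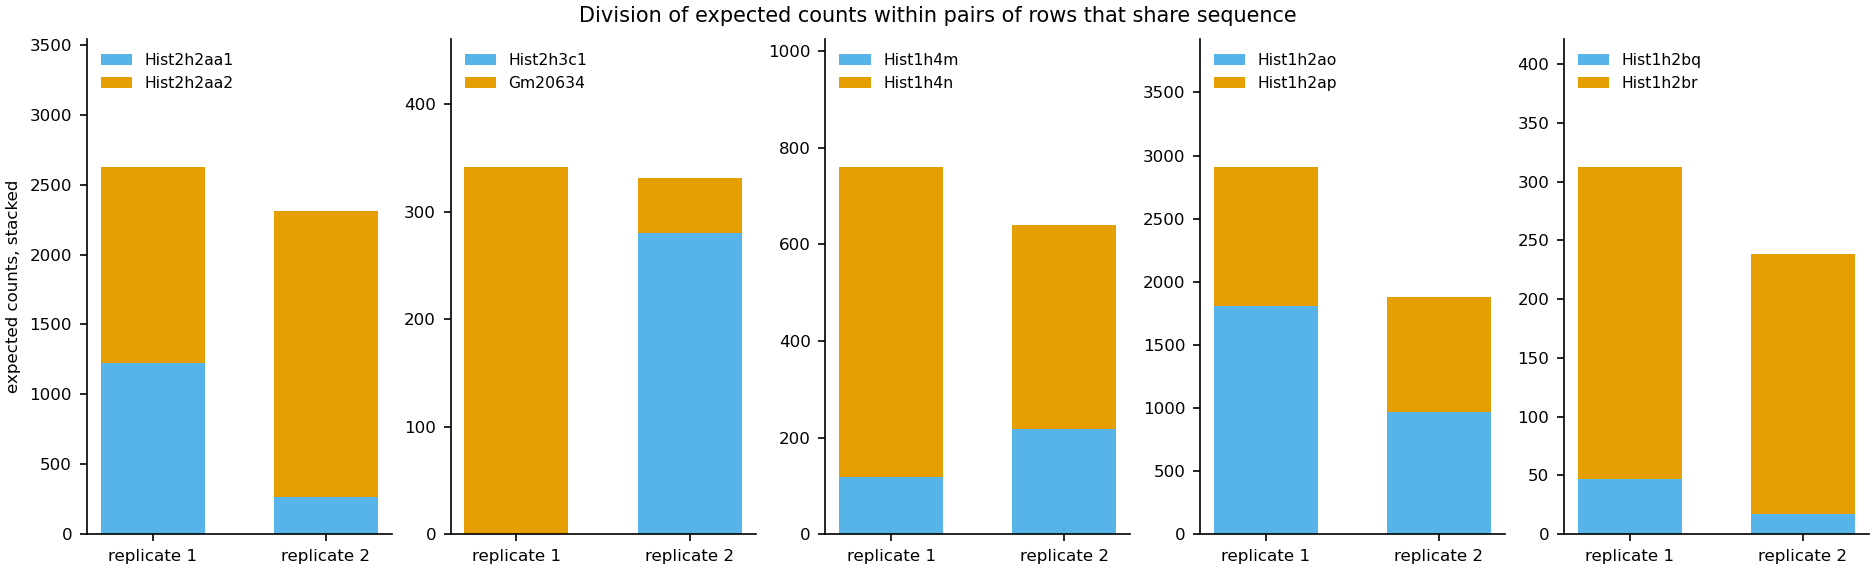
Expected counts in each library, stacked, for 5 pairs of rows that share sequence: 4 pairs of genes with identical coding sequences, and Hist2h3c1 with the overlapping non-coding gene Gm20634. Each panel has its own vertical axis from 0. Not shown is Hist2h3c1 with Hist2h3c2, also identical in coding sequence, which summed to 5720 and 3295 counts. The division within a pair changes between the libraries for Hist2h2aa1 and Hist2h2aa2 and for Hist2h3c1 and Gm20634, while the height of these stacks changes less.

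The error of dividing reads was greater for these genes than for most others. The posterior SD exceeded 5% of the count in 24 of 60 members with at least 10 counts in replicate 1 and in 23 of 61 in replicate 2, against 2.17% and 2.28% of the other nuclear protein-coding genes. It went with similarity between copies. The median over both libraries was 8.29% for the 17 genes whose coding sequence is at least 99% identical to another member, 4.36% for 20 genes at 98 to 99%, 4.68% for 11 genes at 95 to 98% and 0.104% for 12 genes under 95%. Spearman's rho over the 60 genes was 0.64. Genes are not independent replicates and all were read from the same 2 libraries, so no p is given. Hist1h2ad, Hist2h3c1 and Hist1h3h had the largest values, and Hist2h3c2, with the same coding sequence as Hist2h3c1, had the smallest among the 17 genes at 99% or more, at 1.81%.

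**Figure D5:**
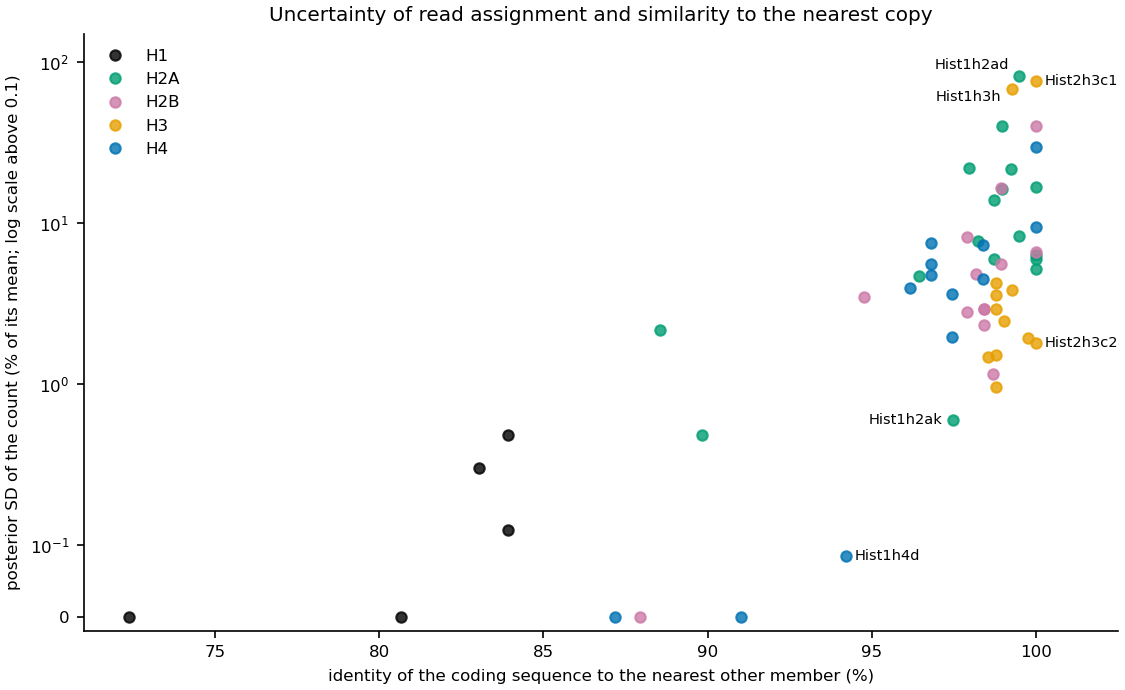
Posterior SD of the count as a percent of its mean, averaged over both libraries, against the identity of the coding sequence to that of the nearest other member, for 60 genes with at least 10 posterior mean counts in each library. The vertical axis is logarithmic above 0.1. Genes under 95% identity, among them Hist1h4d and the H1 genes, lie at 3.49% or less.

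The histone variants listed as replication-independent, many of which can replace clustered histones outside S phase, were lower as a class. The 11 listed genes summed to 701 and 466 TPM, so the clustered genes were 13.8-fold and 12.1-fold higher (12.95-fold ± 1.21, SD, n = 2). H3f3a, an H3.3 gene, had 246 and 178 TPM, and H2afz, the H2A.Z gene, had 179 and 109. H2afy2, H1f0 and H1fx had 0 counts in both libraries, so Hist1h1a to Hist1h1e were the only H1 genes with counts among those listed. None of the 8 variants tested was called different between the libraries, and their median log2 ratio was -0.05, beside -0.11 for the 59 clustered genes with counts in both libraries.

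The listed factors that process and degrade histone mRNA had a median of 11.5 TPM. Of 18 listed genes 17 had a row, 15 were detected and none of 17 tested was called. Slbp, the stem-loop binding protein, had 38.1 and 23.6 TPM, and Sympk, a scaffold of the cleavage complex, had 25.2 and 20.6. Npat, the S phase activator of histone transcription, had 14.3 and 9.47 TPM. Lsm11, a subunit of the U7 particle that directs cleavage behind the stem-loop, had 0.94 and 0.90 TPM, under the detection limit. All 17 listed histone chaperones were detected and none was called, with Rbbp7 (102.4 and 70.0 TPM) and Atrx (77.7 and 40.02) the highest. Their median log2 ratio between the libraries was 0.06.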

How the data were processed

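A gene table and a transcript table of each of 2 total RNA libraries of G1E were used. The authors deposited, per the file headers, expected counts (estimated, not normalised), TPM and FPKM per gene, an isoform percent per transcript, and other columns with posterior SDs, credibility bounds and lengths. No credibility level, aligner, quantifier or version is given in the sources used here. Whether counting used strand is not given either, so reads of members and of genes on the other strand cannot be told apart. The deposited records name mm10 and GENCODE M4. Names, positions and transcripts came from GENCODE M21 (GRCm38), matched without identifier version, and promoters and gene lengths from RefSeq (GRCm38.p6). The protein comparisons translate M21 coding sequences of the transcript with the highest deposited TPM. The members and lists were chosen with earlier results of these data known.

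Levels are TPM with mean and SD over 2 libraries; detection means at least 1 TPM in both. Expected counts were rounded for the exact binomial test (SciPy 1.17.1), which used TMM sizes from edgeR 4.0.16 (R 4.3.3). Ratios have 95% Clopper-Pearson intervals. A count of 0 was taken to allow 3 counts. Intervals and floors cover counting error only, and PCR reads without molecular identifiers are not independent molecules. Alternatives were other scalings (DESeq2 1.42.0 among them), estimates, filters and leaving out each library. No further columns of other samples were present. Python 3.11.15, pandas 2.3.3, NumPy 2.4.6, Biopython 1.88 and matplotlib 3.10.9 were used.

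Named genes were, of each type, the 3 members with the highest mean TPM and the 1 detected member with the lowest; up to 4 called members in each direction with a mean count of at least 100; and of each other list the 2 highest and any called gene. Other members are accounted for beside them, and Npat and Lsm11 were named for their known roles after their values were seen.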

Additional observations from a re-analysis of the deposited data

Results flagged for a closer look

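In the same clusters 3 rows fell outside the rule because the annotation classes them as pseudogenes, and each had counts in both libraries above the 3 that a count of 0 allows. Hist1h2aj had 1010 counts in replicate 1 and 71.2 in replicate 2 (200 and 10.6 TPM), with credibility intervals of 120 to 268 and 6.69e-05 to 43.7, a scaled ratio of 0.0788 that was called higher in replicate 1 (binomial test, Benjamini-Hochberg adjusted p = 2.07e-188, counting error only). Hist1h2al had 459 and 318 counts, a ratio of 0.777 that was not called. Hist3h2bb-ps had 14.1 and 6.22 counts, a ratio of 0.480 that was not called.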

How the results depend on the processing

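The number of detected genes (56) lay between 46 and 59 under other limits and estimates and between 58 and 59 with a single library. It was 54 when the lower credibility bound had to reach 1 TPM in both libraries. The summed TPM of 7659 ranged from 5642 to 9676 when a library was left out and stayed within 1 SD under the other alternatives, 6077 without Hist1h4d among them. The 7 and 2 calls depended on the criteria: 15 and 25 with no fold limit (2045 and 1807 of all genes tested), 4 and 1 in an exact test that used edgeR's common negative binomial dispersion (263 and 33), and 3 and 1 when calls also needed separate credibility intervals (428 and 101, added after seeing the data). Scaling to total counts gave 10 calls higher in replicate 1 (1024 of all genes tested), and scaling to spike-in counts gave 1 and 59 (36 and 11608). These scalings move the median log2 ratio of all genes tested to -0.52 and -4.50. Separate intervals were found for 12 genes without rescaling and for 27 with no fold limit, in place of 5. Shares over all genes tested were not taken under these rules, so the 12 and 27 are no result about these genes in particular. The log2 ratio of summed counts (-0.18) was -0.71 by total counts, -4.68 by spike-in counts, and -0.20 both by other nuclear protein-coding counts and, added after seeing the data, with the pseudogene rows. Single genes were followed by total and spike-in counts only where named by the rule given above. Of those, Hist1h1d reversed to -0.50 by total counts and -4.48 by spike-in counts. By spike-in counts Hist2h2aa2 reversed to -3.79, Hist1h2an to -2.46, Hist1h4j to -3.18 and Hist1h4m to -3.44. Other members with a ratio above 1 can reverse as well and are not listed. The cause of these changes beyond the scaling itself was not tested. No paired analysis was possible because the labels give 1 group.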

Other observations

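Of the H2B genes 4 had more than 1 annotated transcript. Hist1h2bp had 90.8% and 100% of its TPM on the short transcript of 469 bases. Hist1h2be had 93.2% and 92.2% on Hist1h2be-202, and Hist1h2br had 100% on Hist1h2br-203 in both libraries. Hist1h2bq had 40.4% and 100% on Hist1h2bq-202, from 46.8 and 17.2 counts on the gene.

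Among the 59 genes with a promoter window, the 12 with the octamer ATTTGCAT had a median of 14.6 TPM (0 to 403) and the 47 without it 71.2 TPM (0 to 1582). Some of these 12 genes are divergent partners that share the same octamer site. The 35 genes with TATAAA had a median of 70.7 TPM and the 24 without it 65.3 TPM. These are descriptions of overlapping ranges and were not tested.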
